A study of Mus musculus with 8 samples.

Results

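Laminins, nidogens and perlecan form the core of the basement membrane, the thin sheet of matrix on which endothelial cells (ECs) rest. A laminin is a trimer of 1 alpha, 1 beta and 1 gamma chain that binds receptors on the cell through its alpha chain, nidogens link the laminin gamma1 chain to the network of type IV collagen, and perlecan is a large heparan sulfate proteoglycan that binds both nidogen and laminin. Capillaries of most organs carry a continuous basement membrane, whereas the sinusoids of the liver are known for having little of one. The 10 genes described here were taken by symbol from a table of 22520 protein-coding genes: the alpha chains Lama2, Lama3, Lama4 and Lama5, the beta chains Lamb1 and Lamb2, the gamma chain Lamc1, the nidogens Nid1 and Nid2, and Hspg2, which encodes the perlecan core protein. All 10 symbols were found once.

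The values came from mRNA-seq of liver ECs of C57BL/6 mice at postnatal day 14, with 4 WT and 4 LRP1 eKO libraries. LRP1 eKO mice were LRP1 f/f; Cdh5-CreER+/-, with an inducible Cre recombinase under the promoter of Cdh5 (VE-cadherin, an endothelial adhesion molecule), and the WT mice were LRP1 f/f; Cdh5-CreER-/- littermates. Both groups therefore carried the floxed Lrp1 alleles, and loss of Lrp1 cannot be told apart from the presence of CreER, which the WT mice lacked. The study's methods state that the cells were pulled down with beads coated with a PECAM-1 antibody, and the labels call them liver microvesicular cells. The labels do not say whether each library came from a separate animal, and the p-values measure only the spread between these libraries.

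The deposited values are a quantile-normalized signal, in which all libraries are given nearly the same distribution, and their sums lay between 484445 and 485947. The unit before that step is not stated and the depth is unknown, so the genes of the family are compared between libraries and not with each other in level. Where markers are set in order or summed over a list, it is by the signal as deposited, which may not be on one scale for all genes. In the order of replicates 1 to 4, the signal of the targeted gene Lrp1 was 61.6, 59.0, 56.2 and 85.1 for WT and 6.01, 2.16, 5.15 and 4.32 for LRP1 eKO, with a log2 fold change of -3.66 (SE 0.23, limma adjusted p = 2.8e-06). Across genes, the signal hardly varied with exonic length (Spearman's rho 0.025 to 0.093 in the 8 libraries). The markers of the labelled cell type spanned a wide range of signals. Of the pan-endothelial and large vessel EC markers, Tek, Erg, Vwf and Gja5 stayed under 1 in every library, whereas Esam had 13.9 to 19.1, Efnb2 24.6 to 34.5 and Cd34 106.9 to 158.9 over the 8 libraries. Pecam1, the antigen of the beads, had signals of 1.53 to 2.50 in WT and 1.84 to 3.85 in LRP1 eKO libraries, and Cdh5 had 1.26 to 2.27 and 2.21 to 4.99. The stellate cell and fibroblast markers spanned a wide range too. Lrat and Reln stayed under 1 in every library, and the collagen gene Col1a2 had 615.5 to 889.4. The means of the others over the 8 libraries were 1.33 for Hgf, 16.4 for Pdgfrb, 26.55 for Pdgfra and 43.2 for Des. They were 318 for Col3a1, 417 for Col1a1 and 510 for Dcn. Smooth muscle markers ranged from a mean of 0.11 for Rgs5 to 938 for Acta2. The other pan-endothelial markers had means of 0.88 for Cldn5, 1.04 for Tie1, 4.27 for Kdr, 4.92 for Emcn and 18.4 for Eng. The share of ECs among the cells was not tested. These markers were singled out with their values known. WT replicate 4 was the WT library farthest from the WT median for 9 of the 9 genes of the family that could be tested.

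Stretches of DNA just upstream of 3 of these genes are shown because the genes differed most between the genotypes within the family: Lama2 and Nid1 were higher and Lama5 was lower in LRP1 eKO libraries. The promoter table from RefSeq (GRCm38.p6) held an entry for 6 of the 10 genes, and the 250 bases before the annotated start were searched. Each sequence runs from its 5′ to its 3′ end on the gene's strand and stops before any exon of the gene, so that 199 of the 250 bases are shown for Nid1, and capitals mark the GC box, the letters GGGCGG on either strand. The Lama2 stretch is chr10:27616943-27617192 on the minus strand, which lies in an intron of the longer GENCODE gene. The Nid1 stretch is chr13:13437352-13437550 on the plus strand, and the Lama5 stretch is chr2:180225860-180226109 on the minus strand.
Lama2: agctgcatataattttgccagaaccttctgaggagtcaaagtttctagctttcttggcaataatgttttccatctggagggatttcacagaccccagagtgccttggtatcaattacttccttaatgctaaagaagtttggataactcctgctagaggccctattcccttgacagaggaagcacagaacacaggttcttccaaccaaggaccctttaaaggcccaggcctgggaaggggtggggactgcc
Nid1: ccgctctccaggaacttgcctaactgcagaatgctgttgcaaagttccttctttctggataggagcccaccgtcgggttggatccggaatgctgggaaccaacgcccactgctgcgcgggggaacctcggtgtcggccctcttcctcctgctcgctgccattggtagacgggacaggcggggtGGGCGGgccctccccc
Lama5: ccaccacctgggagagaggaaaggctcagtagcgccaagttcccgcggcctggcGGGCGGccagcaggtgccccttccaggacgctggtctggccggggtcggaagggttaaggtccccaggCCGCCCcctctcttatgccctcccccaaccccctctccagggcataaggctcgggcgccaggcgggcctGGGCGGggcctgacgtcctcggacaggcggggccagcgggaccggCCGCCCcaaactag

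The 3 stretches differed in base composition. The share of G and C over 250 bases was 47.2% for Lama2, 64.4% for Nid1 and 72.4% for Lama5, against a median of 52.4% over 32851 promoters. A GC box was found 0 times for Lama2, 1 time for Nid1 and 4 times for Lama5, and 32.7% of all promoters of that length held at least 1. Of the other 3 promoters searched, Hspg2 held 5 GC boxes, Lamb1 held 2 and Lamb2 held 0. The FoxO motif GTAAACA, the AP-1 motif TGANTCA and the letters TATAAA, each sought on both strands, had 0 matches in all 6 stretches, where 3.2%, 6.7% and 12.4% of all promoters held them. A match describes the letters in this window and not a bound site.

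In LRP1 eKO libraries, Lama2, Lamc1 and Nid1 were higher and Lama5 and Nid2 were lower than in WT libraries, while Lama4, Lamb1, Lamb2 and Hspg2 did not pass the test. Signals were compared as log2(signal + 1) with limma and Benjamini-Hochberg adjustment over the 11391 genes whose signal reached 1 in 4 or more of the 8 libraries. Of the 10 genes, 9 passed this filter, and 3 were called higher and 2 lower at an adjusted p under 0.05. Calls were common in the table, since 41.2% of all genes tested were called, 19.0% higher and 22.2% lower, and a call by itself sets no gene of this family apart. The median log2 fold change was -0.01 for the 9 genes and -0.01 for all genes tested. A change of at least 2-fold on this scale was reached by 0 of the 9 genes and by 1.66% of all genes tested together with an adjusted p under 0.05. The signals of the genotypes did not overlap for 4 of the 9 genes and for 42.6% of all genes tested.

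**Figure D1:**
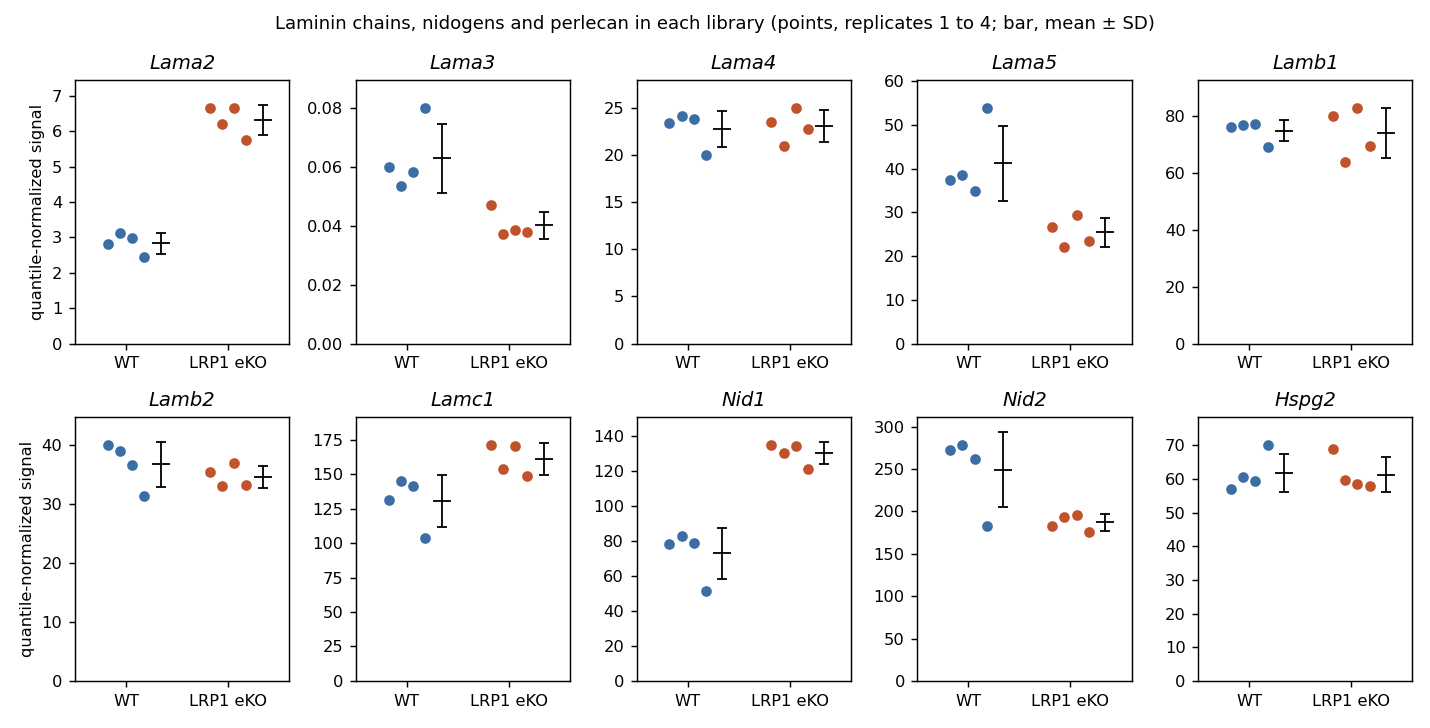
Quantile-normalized signal (y axis, each panel from 0 with its own scale) of the 10 genes in WT libraries (blue) and LRP1 eKO libraries (orange), with a point per library in the order of replicates 1 to 4 and a bar for the mean ± SD. Every LRP1 eKO point lies above every WT point for Lama2, Lamc1 and Nid1 and below every WT point for Lama5 and Lama3, and the fourth WT point is the lowest or the highest of its group in every panel.

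Among the alpha chains, which set the receptors that a laminin binds, Lama2 rose, Lama5 fell and Lama4 gave no call. Lama2 encodes the alpha2 chain, known from the basement membranes of muscle and peripheral nerve. Its gene lies on chromosome 10 of GRCm38 from 26980036 to 27619758 and has 65 exons. In the order of replicates 1 to 4, here and below, the Lama2 signal was 2.81, 3.11, 2.97 and 2.44 for WT and 6.65, 6.21, 6.64 and 5.76 for LRP1 eKO. The lowest LRP1 eKO library was thus well above the highest WT library, and the spread within each genotype was small. Its mean rose from 2.83 ± 0.29 to 6.32 ± 0.43 (SD, n = 4 each), a ratio of 2.23. On the log2(signal + 1) scale, where the change of a gene with so low a signal appears smaller, the fold change was 0.93 (SE 0.07, limma adjusted p = 1.2e-05), and the log2 ratio of the means was 1.16. Leaving out each library in turn gave 0.88 to 0.97. Lama2 exons share 631 bases with Gm48084, an antisense gene on the opposite strand, and the strand setting of the counting is not given in the sources used here.

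Lama5 encodes the alpha5 chain, which is found in mature vessels and in many epithelia, and its gene lies on chromosome 2 from 180176373 to 180225859 with 79 exons. Its signal was 37.5, 38.5, 34.9 and 53.9 in WT replicates and 26.7, 22.1, 29.5 and 23.4 in LRP1 eKO replicates. All 4 LRP1 eKO libraries were below all WT libraries, and WT replicate 4 stood above the other WT libraries. The mean fell from 41.2 ± 8.58 to 25.4 ± 3.33 (SD, n = 4 each), a ratio of 0.617, with a log2 fold change of -0.66 (SE 0.13, limma adjusted p = 0.0035). Without WT replicate 4 the log2 fold change was -0.53 (limma adjusted p = 0.002), and the call held in each of the 8 fits that left out a library.

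Lama4 encodes the alpha4 chain, an early component of the basement membrane of vessels, and its gene lies on chromosome 10 from 38965515 to 39110188 with 38 exons. The Lama4 signal was 23.3, 24.1, 23.8 and 19.9 in WT replicates and 23.5, 20.9, 25.0 and 22.7 in LRP1 eKO replicates, so that the groups overlapped almost entirely. Its log2 fold change was 0.02 (SE 0.07, limma adjusted p = 0.88), with a 95% interval that allows a change between -9.7% and 13.1% of the signal plus 1. Lama3, whose alpha3 chain anchors epithelia, lies on chromosome 18 from 12333819 to 12583013 with 75 exons and was near 0, with signals of 0.0534 to 0.0801 in WT and 0.0374 to 0.0470 in LRP1 eKO libraries. Fitted without the filter, Lama3 had a limma adjusted p of 0.066, although its groups did not overlap.

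The beta chains gave no call, while the gamma1 chain with which they assemble was higher in LRP1 eKO libraries. Lamb1 lies on chromosome 12 from 31265234 to 31329644 with 34 exons, and its beta1 chain is the common beta chain of vessels. The Lamb1 signal was 76.1, 76.9, 77.4 and 69.3 in WT replicates and 80.2, 63.8, 82.9 and 69.4 in LRP1 eKO replicates. The LRP1 eKO libraries spread on both sides of the WT libraries, with replicates 1 and 3 high and replicates 2 and 4 low. The log2 fold change of Lamb1 was -0.02 (SE 0.08, limma adjusted p = 0.84), with a 95% interval of -13.2% to 11.7% of the signal plus 1.

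Lamb2 encodes the beta2 chain, known from the neuromuscular junction, the kidney glomerulus and the walls of arteries, and lies on chromosome 9 from 108479736 to 108490530 with 33 exons. Its signal was 40.0, 39.0, 36.7 and 31.4 in WT replicates and 35.4, 33.1, 36.9 and 33.2 in LRP1 eKO replicates. WT replicate 4 was the lowest of all 8 libraries, and the groups overlapped. The log2 fold change of Lamb2 was -0.08 (SE 0.08, limma adjusted p = 0.43), and without WT replicate 4 it was -0.15 and passed the test (limma adjusted p = 0.041).

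Lamc1 encodes the gamma1 chain, the gamma chain of most laminins and the one that nidogens bind, and lies on chromosome 1 from 153218922 to 153332786 with 28 exons. The Lamc1 signal was 131, 145, 142 and 104 in WT replicates and 171, 154, 171 and 149 in LRP1 eKO replicates. The lowest LRP1 eKO library was above the highest WT library by a small margin, and WT replicate 4 was the lowest of all. Its mean rose from 130.5 ± 18.7 to 161 ± 11.4 (SD, n = 4 each), a ratio of 1.24, with a log2 fold change of 0.31 (SE 0.10, limma adjusted p = 0.031). Without WT replicate 4 the log2 fold change was 0.21 (limma adjusted p = 0.023). The call was lost when WT replicate 1 (limma adjusted p = 0.057), LRP1 eKO replicate 1 (0.078) or LRP1 eKO replicate 3 (0.079) was left out, and when no filter was applied (0.064).

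The nidogens moved in opposite directions. Nid1, on chromosome 13 from 13437551 to 13512269 with 20 exons, had signals of 78.4, 83.1, 79.2 and 51.5 in the WT libraries against 134.8, 130.3, 134.6 and 121.4 in the LRP1 eKO libraries. All LRP1 eKO libraries exceeded all WT libraries, and they lay closer to each other than the WT libraries did. The mean of Nid1 rose from 73.0 ± 14.5 to 130.3 ± 6.25 (SD, n = 4 each), a ratio of 1.78, with a log2 fold change of 0.85 (SE 0.13, limma adjusted p = 0.00084). Without the low WT replicate 4 it was 0.69 (limma adjusted p = 1e-05). Nid1 exons share 143 bases with the antisense gene Gm48682.

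Nid2, on chromosome 14 from 19751265 to 19811787 with 21 exons, had signals of 273, 278, 262 and 183.3 in the WT libraries against 183.3, 193, 196 and 175 in the LRP1 eKO libraries. WT replicate 4 had the signal of LRP1 eKO replicate 1, and the other 3 WT libraries were above all LRP1 eKO libraries. The mean fell from 249 ± 44.3 to 187 ± 9.55 (SD, n = 4 each), a ratio of 0.751, with a log2 fold change of -0.39 (SE 0.12, limma adjusted p = 0.025). The exact two-sided permutation test of Nid2 gave p = 0.11, where 4 libraries against 4 can reach 0.029. Without WT replicate 4 the log2 fold change was -0.53 (limma adjusted p = 5e-05). The call was lost when WT replicate 1, 2 or 3 was left out (limma adjusted p = 0.066, 0.063 and 0.061), when either LRP1 eKO replicate 1 (0.055) or 4 (0.067) was, and when no filter was applied (0.056). Nid2 exons share 437 bases with Rtraf on the opposite strand (listed as 2700060E02Rik), a gene whose signal averaged 136.5 ± 4.95 for WT and 112 ± 2.86 for LRP1 eKO (log2 fold change -0.28, limma adjusted p = 0.00069), and reads of the shared stretch cannot be told apart without strand.

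Hspg2, on chromosome 4 from 137468769 to 137570630 with 97 exons, gave no call. Its signal was 57.2, 60.8, 59.4 and 70.04 in WT replicates and 68.9, 59.8, 58.6 and 58.0 in LRP1 eKO replicates. Each group held 1 high library and 3 that lay close together, and the ranges nearly coincided. The log2 fold change was -0.01 (SE 0.075, limma adjusted p = 0.92), with a 95% interval of -11.6% to 11.4% of the signal plus 1.

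**Figure D2:**
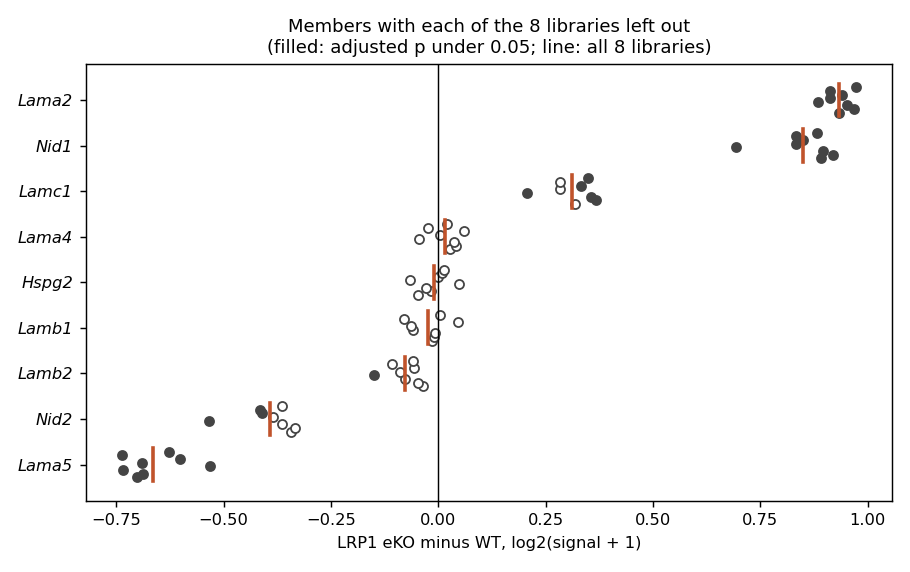
Log2 fold change (x axis, LRP1 eKO minus WT on the log2(signal + 1) scale) of the 9 tested genes, with a point for each of the 8 fits that left out a library, filled where the adjusted p was under 0.05, and an orange line for all 8 libraries. The points of Lama2, Nid1 and Lama5 are filled in all 8 fits, while Lamc1 has 3 open points, Nid2 has 5, and Lamb2 has 1 filled point at -0.15.

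Chains that replace each other, or that are needed together, were also compared within each library as a difference of log2(signal + 1), so that only the shift of this difference between genotypes is read. The balance of the nidogens gave the largest shift of the 4 pairs compared. Nid1 minus Nid2 was -1.79, -1.73, -1.71 and -1.81 in WT replicates and -0.44, -0.57, -0.54 and -0.53 in LRP1 eKO replicates. This difference was tight within each genotype, WT replicate 4 included, although each nidogen alone was low in that library. It moved by 1.24 (exact two-sided permutation test, p = 0.029, adjusted over the 4 pairs 0.038). The shift repeats the rise of Nid1 (log2 fold change 0.85) and the fall of Nid2 (-0.39), and Nid2 shares exonic bases with Rtraf.

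Lama4 minus Lama5 was -0.66, -0.66, -0.54 and -1.39 in WT replicates and -0.17, -0.08, -0.23 and -0.04 in LRP1 eKO replicates. The balance of these vascular alpha chains moved towards Lama4 by 0.68 (exact two-sided permutation p = 0.029, adjusted 0.038), and by 0.49 without WT replicate 4. Any pair whose groups do not overlap reaches this p, and how often other gene pairs do so was not counted. The shift mostly repeats the fall of Lama5 (log2 fold change -0.66), since Lama4 hardly changed (0.02). In the same way, the next shift mostly repeats the rise of Lamc1 (0.31) beside Lamb1 (-0.02). Lamb1 minus Lamc1 moved from -0.78 ± 0.15 to -1.12 ± 0.10 (SD, n = 4 each), a shift of -0.34 towards the gamma1 chain (exact permutation p = 0.029, adjusted 0.038), which was -0.29 when LRP1 eKO replicate 2 was left out (exact permutation p = 0.057). The balance of the beta chains, Lamb1 minus Lamb2, averaged 1.01 ± 0.09 for WT against 1.07 ± 0.11 for LRP1 eKO (SD, n = 4 each), with overlapping groups (exact permutation p = 0.43).

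**Figure D3:**
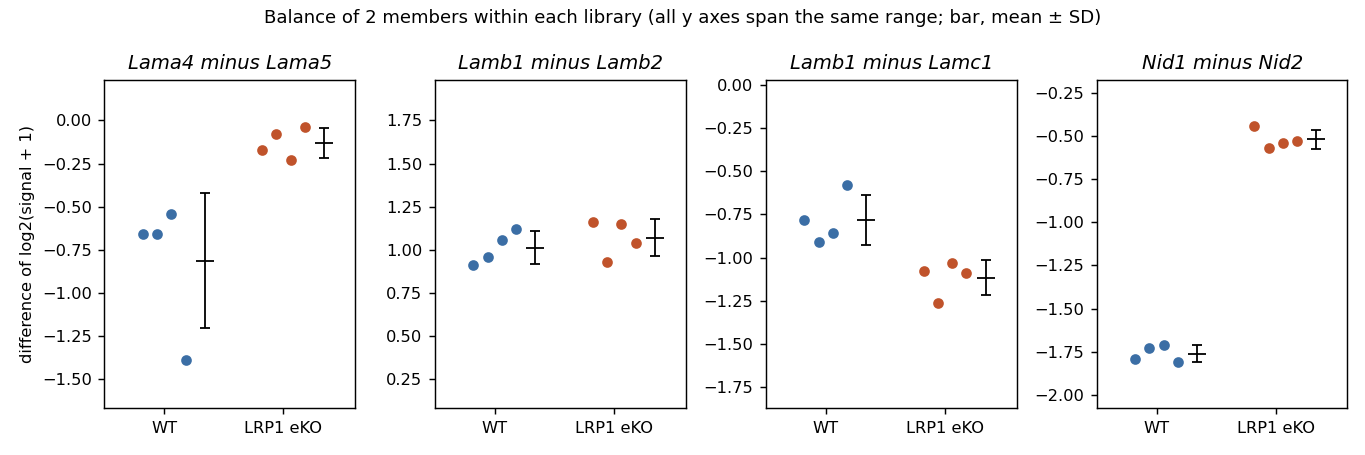
Difference of log2(signal + 1) between 2 genes of the same library (y axis, all panels spanning the same range) for WT libraries (blue) and LRP1 eKO libraries (orange), with a point per library and a bar for the mean ± SD. Groups are apart for Lama4 minus Lama5, Lamb1 minus Lamc1 and Nid1 minus Nid2, whose shift of 1.24 is the largest, and they overlap for Lamb1 minus Lamb2.

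Genes of the same matrix outside the family were taken from a list of 37 other laminin chains, collagen IV chains, further basement membrane components and laminin receptors. Of these, 28 were tested, 9 were called higher and 6 lower, where 19.0% of all genes tested were called higher and 22.2% lower. Their median log2 fold change was 0.08, against -0.01 over all genes tested. Lamc3, the gamma3 chain, had signals of 16.1, 15.95, 15.9 and 15.8 in WT replicates and 7.27, 5.34, 7.07 and 6.23 in LRP1 eKO replicates. Its WT libraries were nearly equal, and its mean fell to a ratio of 0.407 (log2 fold change -1.19, SE 0.08, limma adjusted p = 5.1e-06). Lama1 and Lamb3 were under 1 in every library.

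Type IV collagen, the network to which nidogens tie laminin, gave 0 calls among 6 chains tested with limma, with a median log2 fold change of 0.09. Col4a1 and Col4a2, which encode the chains found in nearly all basement membranes, had log2 fold changes of 0.03 (95% interval -0.25 to 0.32) and 0.07 (-0.14 to 0.28). At an unadjusted p under 0.05 the count among these 6 genes was also 0. Of 19 further components, 13 were tested, 4 were higher and 4 lower, where 19.0% of all genes tested were called higher and 22.2% lower. Fbln2, which encodes a fibulin that binds nidogen and perlecan, rose from 522 ± 14.8 to 856 ± 55.4 (SD, n = 4 each, log2 fold change 0.71, limma adjusted p = 8.7e-06). Fbln1, another fibulin, fell from 9.53 ± 0.65 to 4.81 ± 0.91 (log2 fold change -0.87, limma adjusted p = 0.00025). Hmcn1, which encodes hemicentin-1, fell from 3.11 ± 0.83 to 1.58 ± 0.13 (log2 fold change -0.65, limma adjusted p = 0.0032). The other 3 that were higher were Agrn, which encodes the proteoglycan agrin (log2 fold change 0.56), Tinagl1 (0.55) and Ntn4, which encodes netrin-4 (0.23), and the other 2 that were lower were Smoc2 (-0.58) and Sparc (-0.19). The call of Ntn4 was lost without WT replicate 1, 2 or 4 and without LRP1 eKO replicate 1, 3 or 4, with a limma adjusted p up to 0.10.

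**Figure D4:**
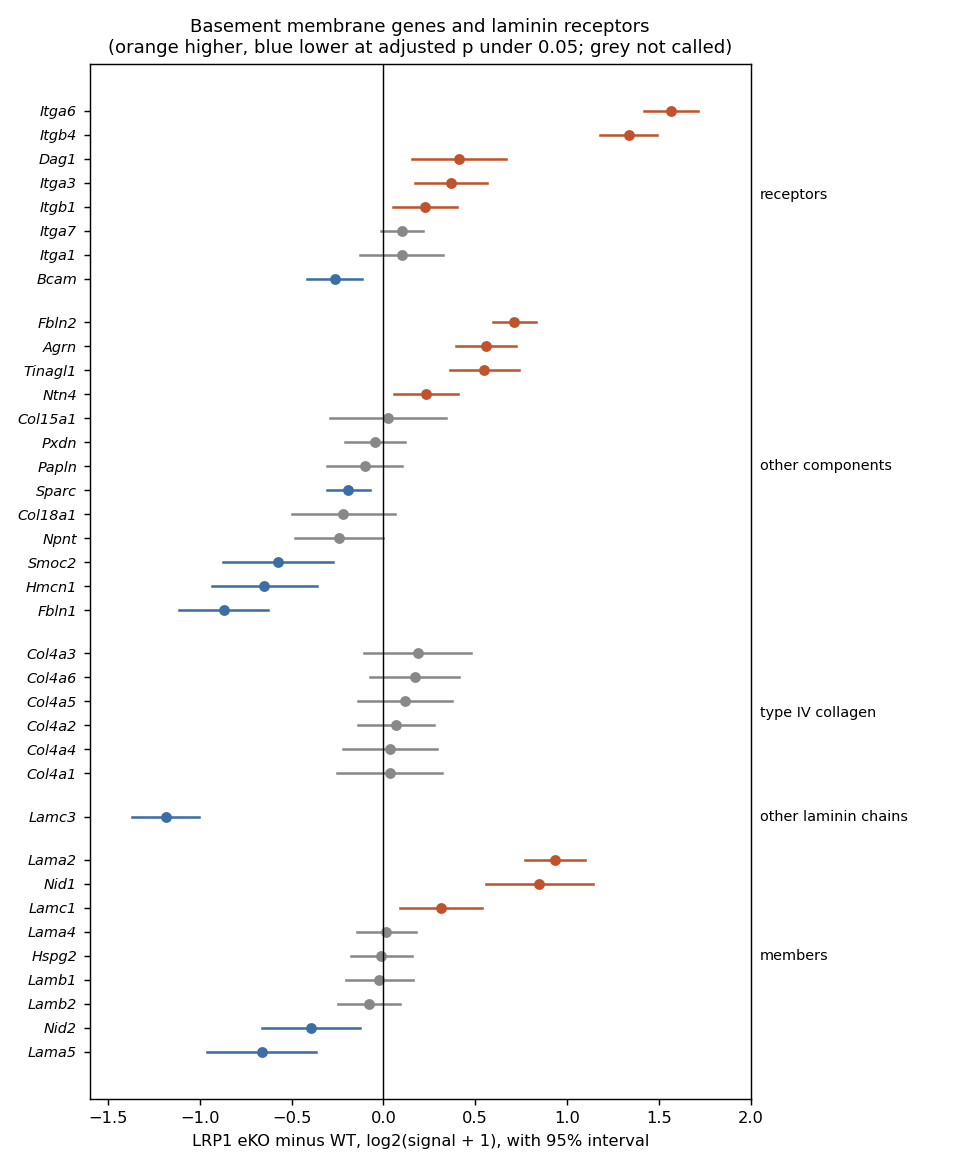
Log2 fold change (x axis, LRP1 eKO minus WT on the log2(signal + 1) scale) with its 95% interval for each tested gene of the family, marked members, and of the 4 groups of partner genes. Genes called higher are orange, genes called lower are blue and genes without a call are grey; Itga6 at 1.57 and Itgb4 at 1.34 lie farthest to the right, Lamc3 at -1.19 farthest to the left, and all 6 type IV collagen chains are grey.

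Of the 9 receptors of laminin and perlecan listed, 8 were tested, 5 were higher and 1 was lower in LRP1 eKO libraries, beside the 19.0% and 22.2% of all genes tested, and their median log2 fold change was 0.30. Itga6 encodes the alpha6 integrin subunit, which forms laminin receptors with the beta1 or the beta4 subunit. Its signal was 5.42, 5.51, 5.95 and 4.63 in WT replicates and 18.0, 18.4, 17.4 and 17.6 in LRP1 eKO replicates. The groups lay far apart in relation to their spread, with a ratio of 3.316 and a log2 fold change of 1.57 (SE 0.07, limma adjusted p = 2.7e-07). Itgb4, which encodes the beta4 subunit and pairs only with alpha6, had signals of 2.40, 2.30, 2.06 and 2.09 in WT replicates and 6.58, 7.92, 7.26 and 6.71 in LRP1 eKO replicates. Its ratio was 3.22 and its log2 fold change 1.34 (SE 0.07, limma adjusted p = 1e-06). These 2 subunits and Lamc3 were the 3 partner genes past 2-fold on the log2(signal + 1) scale.

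The other 3 receptors called higher had smaller fold changes. Dag1 encodes dystroglycan, which binds alpha chains, perlecan and agrin, and rose from 85.1 ± 14.9 to 112 ± 4.13 (SD, n = 4 each, log2 fold change 0.41, limma adjusted p = 0.017). Itga3 and Itgb1, the subunits of the alpha3 beta1 integrin, had log2 fold changes of 0.37 and 0.23 (limma adjusted p = 0.009 and 0.041). The call of Itgb1 was lost without WT replicate 1 and without any of the 4 LRP1 eKO replicates, with an adjusted p up to 0.09. Bcam, which encodes a receptor that binds the alpha5 chain, fell by 0.27 on the log2 scale (limma adjusted p = 0.011). Lama5 was lower too, whereas the integrin genes Itga3, Itga6, Itgb1 and Itgb4 were higher. Any relation of these receptors to Lama5 was not tested.

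**Figure D5:**
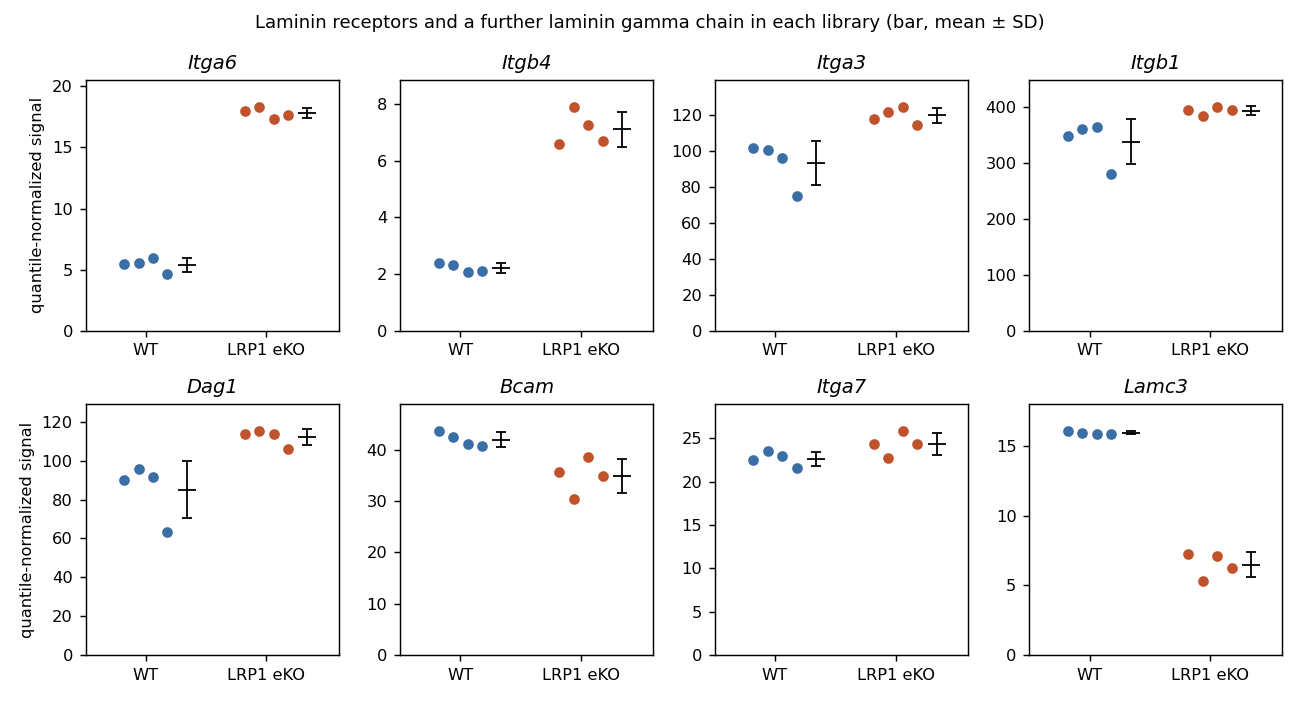
Quantile-normalized signal (y axis, each panel from 0 with its own scale) of 7 laminin receptor genes and Lamc3 in WT libraries (blue) and LRP1 eKO libraries (orange), with a point per library and a bar for the mean ± SD. The groups overlap for Itga7, which was not called, and in none of the other panels, with Itga6, Itgb4 and Lamc3 separated most widely. The tested receptor Itga1, which was not called and whose groups overlapped, is not shown, and the groups did not overlap for 42.6% of all genes tested. WT replicate 4 is the lowest WT library in every panel but that of Itgb4.

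In a cell isolate, fewer cells of a type and less RNA per cell cannot be told apart, so the levels of marker lists are given beside these results. The summed signal of 10 EC markers was 38.7 to 44.3 in WT and 52.0 to 70.4 in LRP1 eKO libraries, with 3 of 7 tested markers higher (Eng, Cdh5 and Esam) and Eng, an EC coreceptor of TGF-beta, at the top by mean signal (log2 fold change 0.91). The sum of 8 sinusoidal EC markers was 7.84 to 11.7 and 8.38 to 33.0, with Stab1 at the top and 1 of 4 tested markers higher (Oit3). That of the 5 large vessel EC markers in the table was 140.8 to 176.4 and 176.9 to 202.5, mostly Cd34, the 1 of 3 tested markers that was higher. The EC lists thus had higher sums in LRP1 eKO libraries, except for the sinusoidal list, whose ranges overlapped. For the counts of called markers here and below, 19.0% of all genes tested were called higher and 22.2% lower. The sums do not stand for every marker. Oit3 passed the filter through its LRP1 eKO libraries alone (1.91 to 3.465, against 0.48 to 0.73 for WT). Eng, with means of 12.4 for WT against 24.3 for LRP1 eKO, weighs heavily in the first sum. Pecam1, Tie1, Kdr and Emcn gave no call, and the genotypes overlapped for Cdh5. Cldn5 went the other way, with 0.57 to 0.83 for LRP1 eKO against 0.97 to 1.19 for WT. Cldn5 did not pass the filter, and the fit without the filter gave a limma adjusted p of 0.0069.

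Of the lists for other cells of the vessel wall and liver, the smooth muscle list had higher sums in all 4 LRP1 eKO libraries than in any WT library. The sum of 8 smooth muscle markers was 1496 to 1562 in WT and 1839 to 1924 in LRP1 eKO libraries, with 4 of 6 tested markers higher (Acta2, Tagln, Cnn1 and Myh11) and Acta2 at the top. That of 10 stellate cell and fibroblast markers was 1997 to 2318 and 1760 to 2220, with Col1a2 at the top, 1 of 8 tested markers higher (Hgf) and 2 lower (Pdgfra and Dcn). The sum of 6 biliary markers, most of it Spp1 and Krt7, was 300.8 to 356.1 and 233.5 to 696.2, and 1 of 3 tested markers was lower (Krt7). Among the smooth muscle markers, Myh11 passed the filter through its LRP1 eKO libraries alone (1.455 to 1.68, against 0.44 to 0.62 for WT). These sums describe the libraries as a whole and were not adjusted for.

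Markers of hepatocytes and skeletal muscle were lower in LRP1 eKO libraries. The sum of 8 hepatocyte markers was 42.8 to 63.0 in WT and 15.2 to 19.8 in LRP1 eKO libraries, with all 3 tested markers lower (Alb, Apoa1 and Serpina1a) and Alb at the top. The sum of the 7 skeletal muscle markers in the table was 31.7 to 53.8 and 5.76 to 7.20, with all 4 tested markers lower (Myl1, Mylpf, Tnnt3 and Atp2a1), Myl1 at the top, and WT replicate 4 the highest library. Atp2a1 passed the filter through its WT libraries alone (4.62 to 7.79, against 0.59 to 0.94 for LRP1 eKO). Any relation of these muscle markers to Lama2, which is known from muscle and was higher in LRP1 eKO libraries, was not tested. The sum of the 9 macrophage markers in the table, mostly Lyz2, was 100.2 to 194.3 and 48.1 to 580.3, with 1 of 6 tested markers higher (Csf1r), and LRP1 eKO replicate 2 was the lowest library. In no list was a marker at 0 in every library. The part of these lists in the differences of the laminin and nidogen genes was not tested.

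WT replicate 4 stood apart from its group over this family, and LRP1 eKO replicate 2 did so in the macrophage list. With both left out, an alternative chosen after seeing the data, the same 5 genes of the family were called in the same directions. The log2 fold changes were then 0.89 for Lama2, 0.23 for Lamc1, 0.69 for Nid1, -0.47 for Lama5 and -0.55 for Nid2.

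The genes whose pattern was most like that of Lamc1, Nid1 and Nid2, the 3 genes of the family with the highest mean signal, were sought after the mean of each genotype was subtracted. The comparison used 8316 genes with a mean signal of at least 5 and all 8 libraries, and Pearson's r is given as a description of genes picked for being highest. For Nid2 they were Itga3 (r = 0.996, Spearman's rho 0.95), Spred2 and Ubap2l. Between the genotypes, Itga3 went the other way from Nid2, with log2 fold changes of 0.37 (limma adjusted p = 0.009) and -0.39. For Nid1 the genes were Hnrnpk (r = 0.997, rho 0.98), Sft2d2 and Dpp8, and for Lamc1 they were Lyst (r = 0.997, rho 1.0), Armcx2 and Arid1a. Without the 2 libraries farthest from the median, r was between 0.95 and 1.0 for these 9 genes. Within the family, r was 0.98 between Nid1 and Nid2, 0.95 between Nid1 and Lamc1 and 0.96 between Lamc1 and Lama2. It was negative for both nidogens with Lama5 (-0.7 for Nid1 and -0.71 for Nid2) and with Hspg2 (-0.59 and -0.7). These values rest on libraries among which WT replicate 4 was low for Nid1, Nid2, Lamc1 and Lama2 and high for Lama5 and Hspg2.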

How the data were processed

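mRNA-seq libraries of liver ECs, 4 WT and 4 LRP1 eKO, were assigned to their group and replicate number by the labels. The authors deposited quantile-normalized signal values of 22520 protein-coding genes in 1 table, 1 column to a library, with 0 columns unmatched. The study's methods name trimGalore, STAR, featureCounts with GENCODE and edgeR for read counts on mm10, the submitters' processing notes name TopHat2 and Cufflinks, and neither describes this table. Because quantile normalization forces a common distribution, a shift of all genes would not be seen, and without counts no interval for counting error was computed.

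From the deposited signal, log2(signal + 1) was fitted with limma 3.58.1 in R 4.3.3 (genotype as the only term, mean-variance trend) for the 11391 genes whose signal reached 1 in 4 or more libraries, with Benjamini-Hochberg adjustment over all of them and a call at an adjusted p under 0.05. A 2-fold change was added as a second rule. A gene that was high in 1 genotype could reach that minimum through the 4 libraries of that genotype alone. Genes under that minimum were fitted in an unfiltered run. Exact two-sided permutation tests were run over libraries by enumeration in Python 3.11.15, with a smallest p of 0.029. Spearman's rho was computed with scipy 1.17.1. The calculation was tested on simulated data. Positions came from GENCODE M21 and promoters from RefSeq.

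The genes of the family and all lists were chosen with earlier results of these data known. By rule, the text names all genes of the family, the 3 largest called changes of each partner group, the top gene of each marker list, Lrp1, and 3 genes of like pattern for each of the 3 members with the highest mean. The result of 1 partner gene is not reported here, and that gene is left out of the partner counts. Other partner and marker genes and Rtraf were named after their values were seen. As alternatives, the pseudocount was set to 0.1 or 5, the filter was dropped or replaced by a mean of 5, limma was run without trend, with robust moderation or with array weights, libraries were centred (mean after trimming 30% at each end), the replicate number was used as a block, means were compared as a ratio, the 2-fold rule was applied, and each library was left out.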

Additional observations from a re-analysis of the deposited data

Results flagged for a closer look

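Within groups of 4 libraries, the gap between the highest or lowest library and its nearest neighbour was divided by the range of the group, and a share above Dixon's 95% critical value for 4 values was marked. Of 44 groups examined for the genes of the family, the named partner genes, Lrp1 and the chain balances, 7 were marked, where chance gives 2.2. In 6 of the 7, WT replicate 4 was the lowest WT library, with shares of 0.8343 for Lama4, 0.8482 for Lamb1, 0.8784 for Nid1, 0.8539 for Nid2, 0.8602 for Dag1 and 0.8546 for Lama4 minus Lama5. The other was Lama3, for which LRP1 eKO replicate 1 was the highest LRP1 eKO library (0.885), at signals under 0.05. Without WT replicate 4, Nid1 and Nid2 had log2 fold changes of 0.69 and -0.53, in place of 0.85 and -0.39 with all libraries (limma adjusted p = 1e-05 and 5e-05 without it). Over the 9 tested genes, WT replicate 4 was the lowest WT library for 7 and the highest for 2, Lama5 and Hspg2. The labels give no batch or date for this library, and the cause was not tested.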

How the results depend on the processing

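No result of the family changed direction while called under any alternative. With the 2-fold rule added, 0 genes of the family were called higher and 0 lower, and among the partner genes 2 were higher and 1 was lower. These counts are for a pseudocount of 1. The log2 fold change of Lama2 was 1.13 at a pseudocount of 0.1 (limma adjusted p = 1.4e-05), past 2-fold, and 0.53 at a pseudocount of 5. With no filter, 17959 genes entered the test and 1 gene of the family was called lower and 2 higher, since Nid2 (limma adjusted p = 0.056) lost its call as lower and Lamc1 (0.064) its call as higher. Leaving out each library in turn gave 1 to 3 genes of the family called lower and 3694 to 4738 genes called in all, and the shift of Lamb1 minus Lamc1 lay between -0.377 and -0.267. Under the pseudocounts, the variance models, array weights and centring, the same 5 genes were called. With a minimum mean of 5, Lama2 left the test. Array weights called 5720 genes in all, against 4690. Ratios of arithmetic means gave log2 values of 1.16 for Lama2 and -0.65 for Lama3.

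The replicate numbers are shared by the genotypes, but deviations from the group means correlated by only -0.086, -0.13, 0.18 and 0.038 between same-numbered libraries, so the numbers were not read as pairs. With the replicate block, 4185 genes were called and the same 5 genes of the family kept their calls. The chain balances under the pairing had shifts of 0.679 for Lama4 minus Lama5, -0.335 for Lamb1 minus Lamc1 and 1.242 for Nid1 minus Nid2, each at an exact sign-flip p = 0.125, the smallest that 4 pairs allow. The depth of the libraries is unknown, so the counting error of low signals such as those of Lama3 is not known.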

Other observations

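Partner genes with a signal under 1 in every library were not part of the counts above, and their values are given here from the fit without the filter. Itga2, which encodes the alpha2 integrin subunit of a collagen and laminin receptor, had signals of 0.213 to 0.397 in WT and 0.534 to 0.724 in LRP1 eKO libraries (limma adjusted p = 0.0083). Smoc1, a SPARC-related matrix gene, had 0.450 to 0.547 and 0.157 to 0.349 (0.006), and Vwa1, which encodes a perlecan-binding protein, had 0.269 to 0.406 and 0.132 to 0.200 (0.015). The groups did not overlap for these 3 genes and for Fras1 (0.184 to 0.270 in WT and 0.293 to 0.408 in LRP1 eKO libraries, limma adjusted p = 0.06). The other 5, Lama1, Lamb3, Egflam, Frem1 and Frem2, had overlapping groups. At such signals a library may hold few reads, and the number is not known. Over all 22520 genes, the groups did not overlap for 5747. In the fit without the filter, 4901 of 17959 genes had a limma adjusted p under 0.05.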
